A study of Rattus norvegicus with 4 samples.

Results

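The 9 genes Srebf1, Srebf2, Scap, Insig1, Npc1, Npc2, Tmem97, Stard4 and Abca1 sense sterol in rat neural stem/progenitor cells (NSPCs) or move it into, through and out of the cell. They were taken by symbol from the 16881 gene symbols of the count tables, where each had 1 entry. A count above 0 was present for 8 of the 9, and those 8 were tested among 10516 genes; Abca1 was listed at 0 in every library. The 4 groups were wild-type cells on PUCL@CNT1 in differentiation medium, on PUCL in differentiation medium, on PUCL@CNT1 in maintenance medium and on PUCL in maintenance medium, with 1 library each. All cells spent 24 h in the stemness-maintaining medium, and the differentiation groups a further 1.5 d in B-27 Plus neuronal medium, so the change of medium cannot be told apart from the longer culture. The labels name PUCL and PUCL@CNT1 only as culture platforms.

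Animal cells hold membrane cholesterol within narrow limits by sensing it in the endoplasmic reticulum. There, Scap binds the precursors of the transcription factors made from Srebf1 and Srebf2 and escorts them to the Golgi when sterol is low, where they are cut and released to the nucleus. Sterol makes Scap bind the anchor protein Insig1, which keeps the complex in place; Insig1 is itself a target of the released factors, as are Stard4, Tmem97 and the synthesis enzymes. In the brain, cholesterol is made locally, since lipoproteins of the blood do not cross into it.

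Libraries held 6855984 counts (PUCL@CNT1) and 6580894 (PUCL) in differentiation medium, against 6035848 (PUCL@CNT1) and 6502918 (PUCL) in maintenance medium. All 8 neural stem and progenitor markers had counts, though Hes5 had fewer than 10 in every library and was not tested. Their summed level was 8186 to 10331 CPM (counts TMM-scaled to a common library size) in differentiation medium against 6341 to 6687 in maintenance medium. Summed oligodendrocyte lineage markers stood at 1314 to 1345 CPM against 736 to 850, and mural cell and fibroblast markers, with Dcn and Lum at 0, at 356 to 500 CPM against 747 to 1064. Of these 5 mural and fibroblast markers, 3 had counts. Over the alternative settings their fitted log2 medium changes were -1.39 to -0.83 for Acta2, -5.32 to -1.75 for Pdgfrb and -2.55 to 5.32 for Col1a1. The sum is therefore not a level that its markers share. The 6 astrocyte markers summed to 993 CPM on PUCL in differentiation medium and to 481 to 520 CPM in the other libraries. Neuron markers summed to 55.4 to 91.3 CPM against 119 to 133, endothelial markers, with Pecam1 and Cdh5 at 0, to 2.78 to 29.5 against 14.4 to 17.6, and all 6 microglia markers were at 0. The Rn45s ribosomal RNA entry held 4.25% (PUCL@CNT1) and 6.72% (PUCL) of counts in differentiation medium, against 4.54% and 5.66% in maintenance medium, in the same order. Together the Rn45s, Rn28s and Rn18s entries held 8.46% and 13.4%, against 9.03% and 11.3%, again in that order. The part of these differences in the results on sterol genes was not tested, and in a bulk library fewer cells of a type and less RNA per cell cannot be told apart.

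Promoters are shown for Insig1, the member that passed the test of the medium change, and for Srebf2 and Srebf1, which code for the factors it restrains and had opposite directions. They are RefSeq sequences of the GRCr8 assembly, 250 bases before to 50 after an annotated start, on the gene's strand. Capitals mark matches on either strand to CACNCCA, the loose core of the sterol regulatory element TCACNCCAC, to CCAAT, the Y-box bound by NF-Y, and to CACGTG, an E-box. Insig1 lies at chr4:8057720-8058019 (minus strand), Srebf2 at chr7:115543057-115543356 (plus strand), and the upstream and downstream starts of Srebf1 at chr10:45529115-45529414 and chr10:45518961-45519260 (minus strand).
Insig1: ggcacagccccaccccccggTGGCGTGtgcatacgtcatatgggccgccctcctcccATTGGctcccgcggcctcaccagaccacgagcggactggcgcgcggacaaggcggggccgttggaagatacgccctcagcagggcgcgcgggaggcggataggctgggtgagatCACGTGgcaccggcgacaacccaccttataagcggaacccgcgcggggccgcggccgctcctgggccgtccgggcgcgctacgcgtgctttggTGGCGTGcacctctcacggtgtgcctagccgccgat
Srebf2: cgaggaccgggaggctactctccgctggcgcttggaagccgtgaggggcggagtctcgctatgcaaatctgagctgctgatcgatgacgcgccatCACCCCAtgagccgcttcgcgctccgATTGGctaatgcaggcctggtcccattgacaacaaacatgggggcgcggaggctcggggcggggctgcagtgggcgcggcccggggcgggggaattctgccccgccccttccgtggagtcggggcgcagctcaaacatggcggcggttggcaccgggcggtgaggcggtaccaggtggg
Srebf1 upstream start: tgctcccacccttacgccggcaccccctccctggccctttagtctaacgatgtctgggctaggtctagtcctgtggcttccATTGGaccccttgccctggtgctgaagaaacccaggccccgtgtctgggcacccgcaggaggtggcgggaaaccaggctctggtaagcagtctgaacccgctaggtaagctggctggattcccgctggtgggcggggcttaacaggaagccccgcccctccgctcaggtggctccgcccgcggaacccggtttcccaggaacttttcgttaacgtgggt
Srebf1 downstream start: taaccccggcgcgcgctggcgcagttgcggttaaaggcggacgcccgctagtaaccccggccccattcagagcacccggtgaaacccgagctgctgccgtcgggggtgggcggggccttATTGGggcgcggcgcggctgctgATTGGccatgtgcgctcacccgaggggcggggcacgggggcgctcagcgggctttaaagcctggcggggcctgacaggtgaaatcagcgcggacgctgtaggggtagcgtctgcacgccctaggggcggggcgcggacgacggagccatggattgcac

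The full element TCACNCCAC was in none of the 8 members with a promoter entry and in 1.12% of 33469 RefSeq promoters of this length. Its loose core, which lies inside the full element, was in Insig1 and Srebf2, 2 of the 8 members, and in 17.2% of all promoters. Srebf2 carried the core once, at base -155 from the start. Insig1 carried it at bases -230 and 15, both on the strand opposite to the printed sequence. A Y-box was in 5 of the 8 members (Insig1, Npc2, Srebf1, Srebf2 and Tmem97) and in 37.5% of all promoters. The Sp1 box GGGCGG, which GC-rich promoters share, was in all 8 members and in 33.1% of all promoters. The E-box was in Abca1, Insig1 and Scap, 3 of 8, and in 6.42% of all promoters. These are letter matches in a short window, not binding sites, and the 3' counts do not separate the starts of Srebf1.

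**Figure D1:**
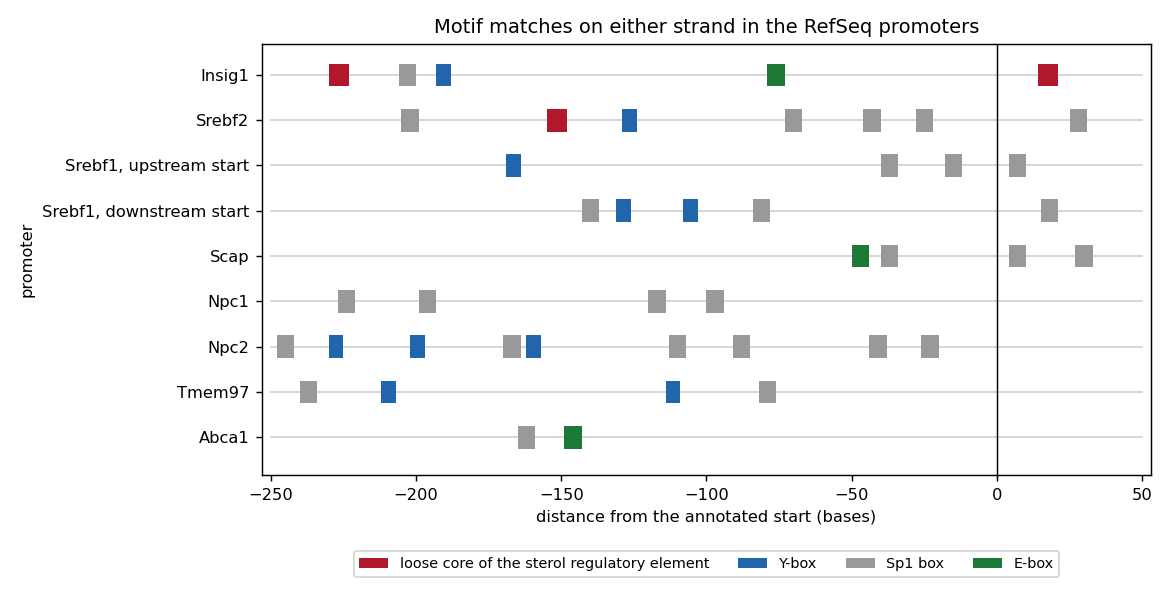
Positions of motif matches on either strand in the RefSeq promoters of the 8 members with an entry (Srebf1 has 2 starts), against distance from the annotated start in bases; each block is 1 match, coloured by motif. The loose core of the sterol regulatory element appears in Insig1 and Srebf2, and the Sp1 box in every row.

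Within the sensing machinery, differentiation medium went with less Insig1 mRNA on both platforms. Insig1, the anchor that holds Scap back, stood at 61.1 CPM (406 counts) on PUCL@CNT1 and 65.7 CPM (425 counts) on PUCL in differentiation medium, against 117 CPM (728 counts) and 155 CPM (1024 counts) in maintenance medium, in the same platform order. Both differentiation libraries were below both maintenance libraries, and the groups did not overlap. The log2 ratio of differentiation over maintenance was -0.93 on PUCL@CNT1 (95% counting interval -1.11 to -0.76) and -1.24 on PUCL (-1.41 to -1.08). With the 2 platforms taken as repeats of the medium change, Insig1 fell by a fitted log2 of 1.09 (SE 0.32, edgeR adjusted p 0.0408). It was the only 1 of the 8 members past the threshold of 0.05, where 2.81% of all genes tested passed and 1.02% did so as lower. The call is weak: 4 of 12 alternative settings kept it, with adjusted p from 0.0302 to 0.756, and DESeq2 gave 0.174. Leaving platform out of the fit on all 4 libraries ended it (edgeR adjusted p 0.0851). So did leaving out any 1 library, where platform was left out as well, so the 2 cannot be told apart. The fitted log2 change was then -1.05 without PUCL@CNT1 and -1.15 without PUCL in differentiation medium. It was -1.29 without PUCL@CNT1 and -0.88 without PUCL in maintenance medium. The fitted log2 change under the 12 settings ran between -1.29 and -0.88.

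Scap, the sterol-sensing escort, had 120 CPM (801 counts) on PUCL@CNT1 and 148 CPM (958 counts) on PUCL in differentiation medium, against 107 CPM (666 counts) on PUCL@CNT1 and 107 CPM (704 counts) on PUCL in maintenance medium. Both differentiation libraries were above both maintenance libraries, by a log2 ratio of 0.18 on PUCL@CNT1 (0.03 to 0.33) and 0.47 on PUCL (0.33 to 0.62). The fitted log2 change of 0.32 (SE 0.30) did not pass in edgeR (adjusted p 0.852). It was 0.18 without PUCL in differentiation medium, in a fit that also left out platform.

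The genes of the SREBP factors had opposite directions. Srebf1, whose products mainly drive fatty acid synthesis, stood at 54.0 CPM (359 counts) on PUCL@CNT1 and 44.9 CPM (290 counts) on PUCL in differentiation medium, against 22.1 CPM (138 counts) and 25.5 CPM (168 counts) in maintenance medium. Differentiation libraries were higher on each platform, with log2 ratios of 1.29 (1.00 to 1.58) on PUCL@CNT1 and 0.81 (0.54 to 1.10) on PUCL. Srebf2, the main regulator of cholesterol synthesis and lipoprotein uptake, had 274 CPM (1820 counts) and 321 CPM (2076 counts) in differentiation medium, against 344 CPM (2149 counts) and 411 CPM (2713 counts) in maintenance medium. Here the differentiation libraries were lower, with log2 ratios of -0.33 (-0.42 to -0.24) on PUCL@CNT1 and -0.36 (-0.44 to -0.27) on PUCL. Neither passed the test across platforms: the fitted log2 change was 1.05 (SE 0.50, edgeR adjusted p 0.362) for Srebf1 and -0.34 (SE 0.21, edgeR adjusted p 0.607) for Srebf2.

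**Figure D2:**
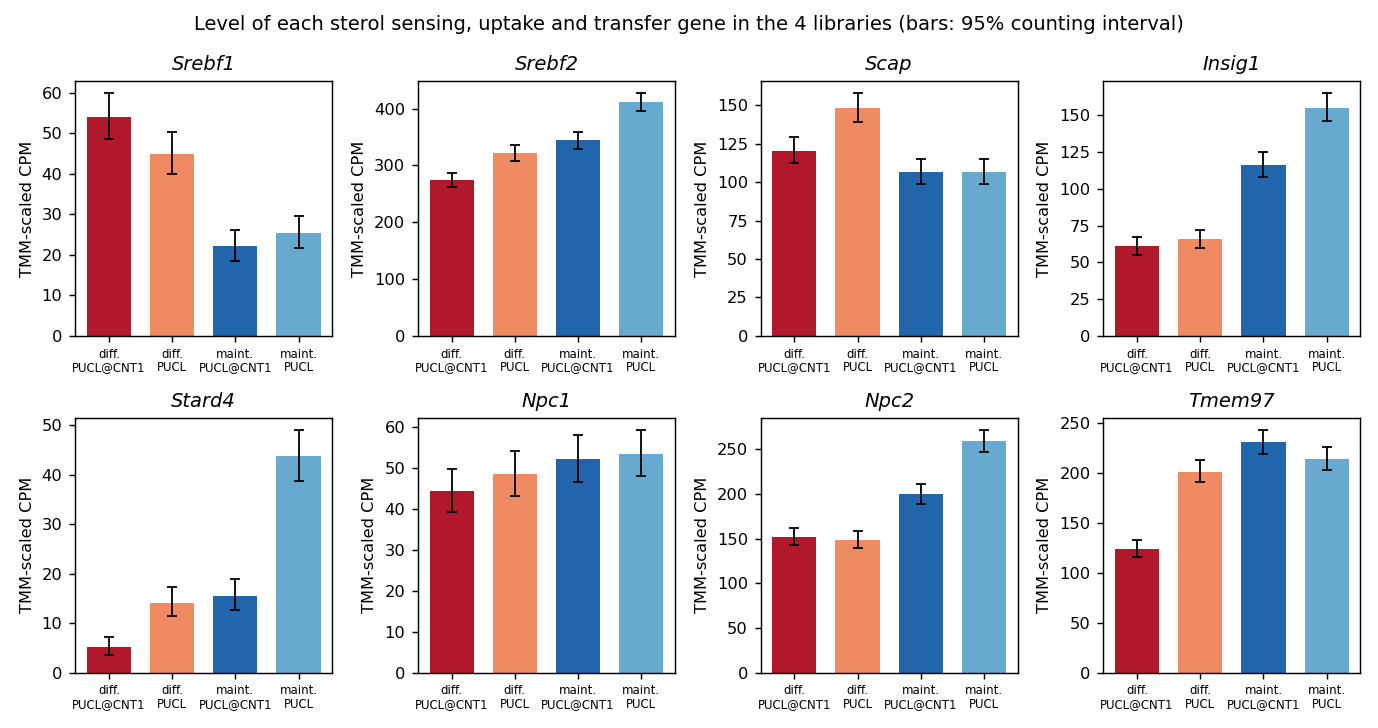
Level of each of the 8 members with counts, in TMM-scaled CPM, in the 4 libraries (red shades: differentiation medium; blue shades: maintenance medium); lines are exact 95% Poisson intervals, for counting error only. Srebf1 and Scap were higher in both differentiation libraries than in both maintenance libraries, and the other 6 were lower, with a gap within counting error for Stard4, Npc1 and Tmem97.

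Shares of 2 genes within 1 library do not depend on how libraries are scaled, and 2 such shares were added after the values were seen. Srebf1 gave 16.5% (exact binomial 95% interval 14.9 to 18.1) of the summed Srebf1 and Srebf2 counts on PUCL@CNT1 and 12.3% (11.0 to 13.6) on PUCL in differentiation medium. In maintenance medium its share was 6.03% (5.09 to 7.09) on PUCL@CNT1 and 5.83% (5.003 to 6.75) on PUCL. The shares of the 2 platforms overlapped in maintenance medium and not in differentiation medium. Insig1 gave 33.6% (31.0 to 36.4) of the summed Insig1 and Scap counts on PUCL@CNT1 and 30.7% (28.3 to 33.2) on PUCL in differentiation medium, against 52.2% (49.6 to 54.9) on PUCL@CNT1 and 59.3% (56.9 to 61.6) on PUCL in maintenance medium. Counts from 3' ends give the change of such a share between libraries, not the ratio of the proteins, and with 1 library per group the intervals cover counting error only.

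**Figure D3:**
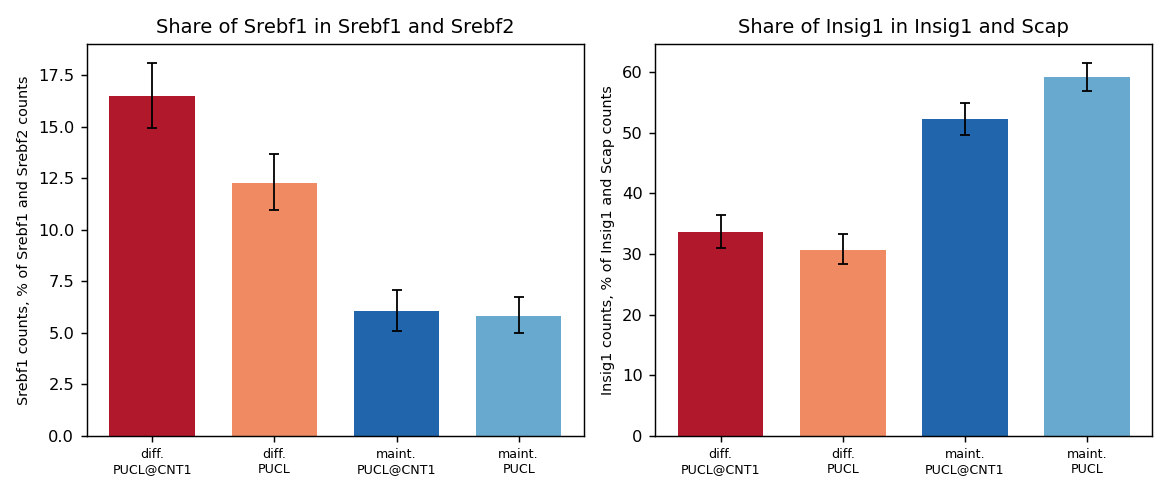
Left, Srebf1 counts as a percentage of Srebf1 and Srebf2 counts; right, Insig1 counts as a percentage of Insig1 and Scap counts, in each of the 4 libraries, with exact 95% binomial intervals. The share of Srebf1 was 12.3% to 16.5% in differentiation medium and 5.83% to 6.03% in maintenance medium, and that of Insig1 30.7% to 33.6% and 52.2% to 59.3%.

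Among the genes of sterol transfer and lysosomal exit, Stard4 had the lowest ratios in both comparisons. Stard4, a soluble carrier that moves sterol between membranes, stood at 5.11 CPM (34 counts) on PUCL@CNT1 and 14.1 CPM (91 counts) on PUCL in differentiation medium, against 15.5 CPM (97 counts) on PUCL@CNT1 and 43.7 CPM (288 counts) on PUCL in maintenance medium. PUCL in maintenance medium was far above the other libraries, PUCL@CNT1 in differentiation medium was lowest, and the 2 in between differed by less than counting error. Its log2 ratio of differentiation over maintenance was -1.59 (-2.21 to -1.03) on PUCL@CNT1 and -1.63 (-1.99 to -1.29) on PUCL. The fitted log2 change was -1.62 with an SE of 0.74, and did not pass in edgeR (adjusted p 0.330), on the lowest counts of the 8 members. It was -2.53 without PUCL in differentiation medium and -0.69 without PUCL in maintenance medium. Those fits also left out platform, so the platform difference of Stard4 enters both values.

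Npc2, the soluble lysosomal protein that hands cholesterol to Npc1, had 152 CPM (1012 counts) on PUCL@CNT1 and 148 CPM (959 counts) on PUCL in differentiation medium, against 200 CPM (1247 counts) and 259 CPM (1708 counts) in maintenance medium. Differentiation libraries were lower on each platform, with log2 ratios of -0.39 (-0.51 to -0.27) on PUCL@CNT1 and -0.80 (-0.92 to -0.69) on PUCL, and a fitted change of -0.60 (SE 0.25, edgeR adjusted p 0.263). Npc1, the membrane protein that passes that cholesterol out of the lysosome, had 44.2 CPM (294 counts) and 48.4 CPM (313 counts) in differentiation medium, against 52.0 CPM (325 counts) and 53.4 CPM (352 counts) in maintenance medium. Its log2 ratio of differentiation over maintenance was -0.23 (-0.47 to 0.00) on PUCL@CNT1 and -0.14 (-0.37 to 0.08) on PUCL. No neighbouring libraries in its order of levels differed beyond counting error, and its fitted log2 change was -0.19 (SE 0.42, edgeR adjusted p 0.953). Npc1 and Npc2 act in 1 relay, but the difference between their changes was not tested.

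Tmem97, an endoplasmic reticulum protein that binds Npc1 and is also known as the sigma-2 receptor, had 124 CPM (822 counts) on PUCL@CNT1 and 201 CPM (1299 counts) on PUCL in differentiation medium, against 231 CPM (1440 counts) on PUCL@CNT1 and 214 CPM (1410 counts) on PUCL in maintenance medium. PUCL@CNT1 in differentiation medium stood below the other 3 libraries. Its log2 ratio of differentiation over maintenance was -0.90 (-1.02 to -0.77) on PUCL@CNT1 and -0.09 (-0.20 to 0.02) on PUCL, and the fitted change of -0.49 (SE 0.26) did not pass in edgeR (adjusted p 0.445). That change was -0.84 without PUCL in differentiation medium and -0.15 without PUCL@CNT1 in differentiation medium. Both fits also left out platform, so the platform difference of Tmem97 enters both values.

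Abca1, which exports cholesterol to apolipoprotein A-I, was at 0 counts in all 4 libraries. The limit that a count of 0 allows, set at 3 counts, was 0.451 CPM on PUCL@CNT1 and 0.464 CPM on PUCL in differentiation medium, and 0.480 CPM and 0.455 CPM in maintenance medium. A 0 in every library can also come from how reads were assigned to gene ends, which was not tested, so no level or change of export through Abca1 was measured here.

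Over the members, the differentiation-over-maintenance ratio was above 0 on both platforms for 2 (Srebf1 and Scap) and below 0 on both for 6, where 29.6% of all genes tested were above 0 on both and 28.7% below. For all 8 the differentiation libraries did not overlap the maintenance libraries, where the same held for 38.8% of all genes tested; for Stard4, Npc1 and Tmem97 the gap lay within counting error. The median log2 ratio of the 8 was -0.36 on PUCL@CNT1 and -0.25 on PUCL, where the median of all genes tested was -0.02 and 0.03. By a rule of size for a pair of libraries, at least 2-fold with the nearer interval bound beyond 1.5-fold, Stard4 was lower and Srebf1 higher on PUCL@CNT1, and Stard4 and Insig1 were lower on PUCL. Those are 2 of 8 members on each platform, where 30.9% of all genes met the rule in either direction on PUCL@CNT1 and 15.2% met it as lower on PUCL. At an unadjusted p under 0.05, 4 of the 8 members and 1273 of the 10516 genes (12.1%) stood in the edgeR fit.

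**Figure D4:**
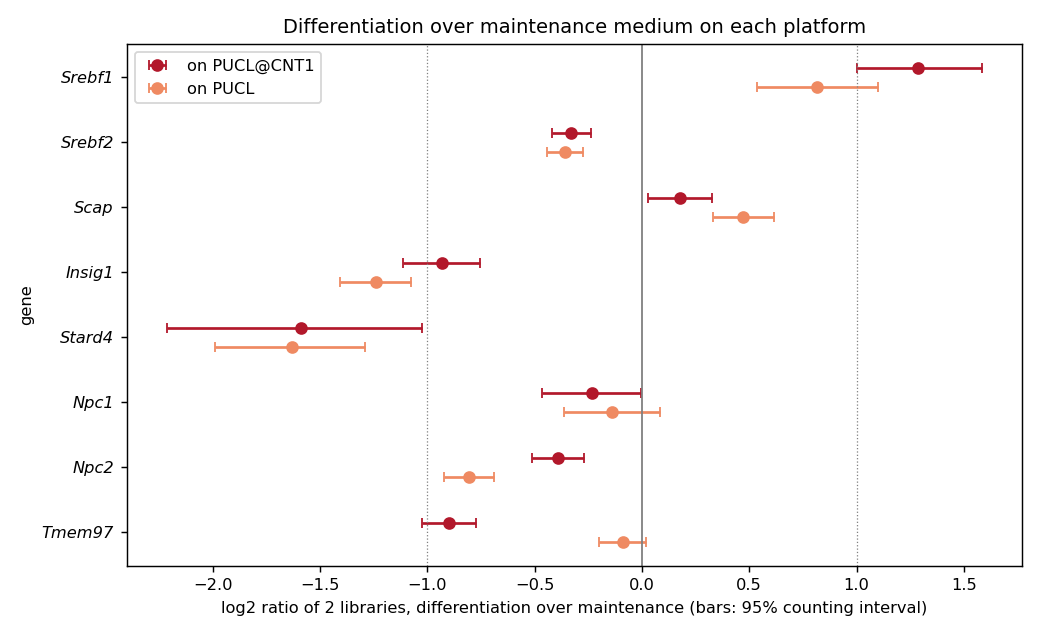
Log2 ratio of differentiation over maintenance medium for each member, on PUCL@CNT1 (dark) and PUCL (light), with exact 95% counting intervals; dotted lines mark 2-fold. Ratios had the same direction on both platforms for all 8 members, and Tmem97 shows the widest gap between platforms, at -0.90 and -0.09.

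Between platforms, Stard4 was lower on PUCL@CNT1 in both media, and no member passed the test. Its levels given above make a log2 ratio of PUCL@CNT1 over PUCL of -1.45 (-2.07 to -0.88) in differentiation medium and -1.49 (-1.84 to -1.16) in maintenance medium, which met the size rule in both. It was 1 of 8 members to do so in each medium, and 15.6% of all genes met the rule as lower in differentiation medium and 13.9% in maintenance medium. With the 2 media taken as repeats, the fitted log2 difference of Stard4 was -1.47 (SE 0.74, edgeR adjusted p 0.714, unadjusted p 0.048). Its value ran from -2.49 without PUCL@CNT1 in maintenance medium to -0.45 without PUCL in maintenance medium. Those fits also left out medium, so the medium change of Stard4 enters both values. Of the 8 members, 0 passed in edgeR, where 0.456% of all genes passed, and 0 in limma-voom. DESeq2 gave an adjusted p for Srebf2 only among them (0.680) and none for the other 7. At an unadjusted p under 0.05 in edgeR stood 1 member, Stard4, and 6.95% of all genes.

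Srebf2 had log2 ratios of PUCL@CNT1 over PUCL of -0.23 (-0.32 to -0.14) in differentiation medium and -0.26 (-0.34 to -0.18) in maintenance medium, both beyond counting error. Scap had -0.30 (-0.44 to -0.16) and 0.00 (-0.16 to 0.15), and Insig1 -0.11 (-0.31 to 0.09) and -0.41 (-0.55 to -0.28), in the same order of media. For Npc1 both ratios lay within counting error, at -0.13 (-0.37 to 0.10) and -0.04 (-0.26 to 0.18). The other fitted platform differences, of members other than Stard4, ran from -0.29 for Tmem97 to 0.03 for Srebf1, each with an edgeR adjusted p of 1.00.

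The platform difference of Tmem97 changed most between media among the members. Its log2 ratio of PUCL@CNT1 over PUCL was -0.70 (-0.83 to -0.57) in differentiation medium and 0.11 (0.00 to 0.22) in maintenance medium, a change of -0.81 (-0.97 to -0.64). Npc2 had 0.04 (-0.09 to 0.17) and -0.38 (-0.48 to -0.27), a change of 0.41 (0.25 to 0.58), and Srebf1 had 0.27 (0.04 to 0.50) and -0.20 (-0.54 to 0.13), a change of 0.47 (0.08 to 0.87). The change was 0.31 (0.07 to 0.55) for Insig1 and -0.30 (-0.50 to -0.09) for Scap, and its interval held 0 for Srebf2, Stard4 and Npc1. None of the 8 met the size rule for this change, against 29.5% of all genes. With 4 libraries for 4 groups, this change could not be tested against spread between replicates.

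**Figure D5:**
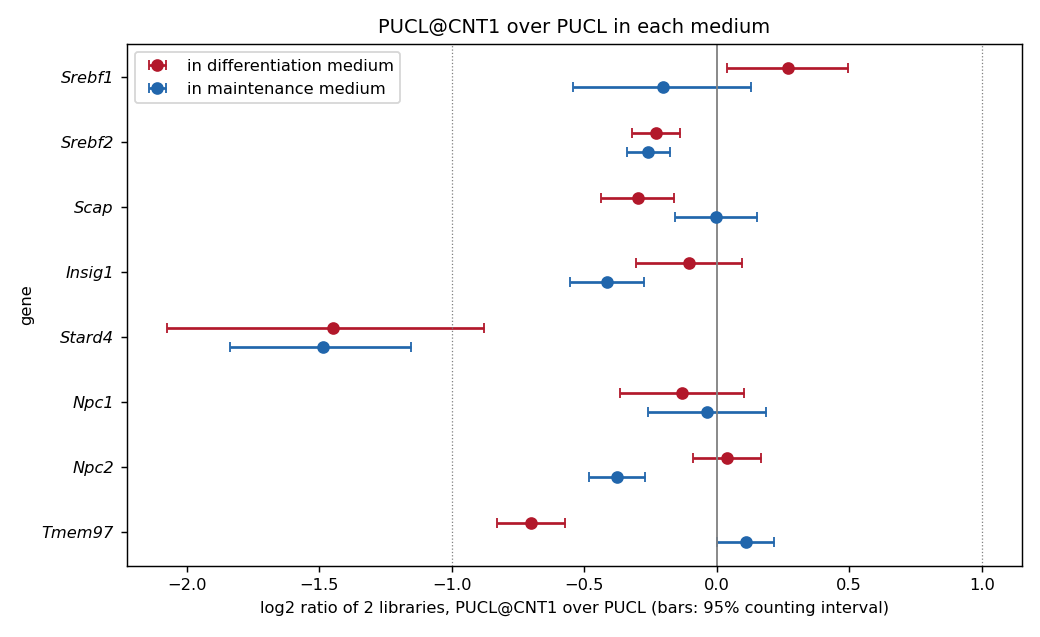
Log2 ratio of PUCL@CNT1 over PUCL for each member in differentiation medium (red) and maintenance medium (blue), with exact 95% counting intervals; dotted lines mark 2-fold. Stard4 lies near -1.5 in both media, and Tmem97 at -0.70 in differentiation medium and 0.11 in maintenance medium.

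Other genes of the pathway were described by lists, beside the shares of all genes tested that rose (1.8%) and fell (1.02%) after the medium change in edgeR. In the same fit 12.1% of all genes had an unadjusted p under 0.05, in either direction. Of 12 tested regulators besides the members, 0 rose and 1 fell, and 2 had an unadjusted p under 0.05. Insig2, the paralogue of Insig1, had 7 counts on PUCL@CNT1 in maintenance medium and 0 in the other libraries, so its change was not detectable at this depth.

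Of 10 tested uptake genes, 1 rose and 0 fell past the threshold. The 5 with an unadjusted p under 0.05 in edgeR went in both directions, with a fitted log2 change of 0.93 for Lrp1 and -0.99 for Scarb1. The gene past the threshold was Lamp2, a lysosomal membrane protein. Lamp2 had 92.1 CPM (612 counts) on PUCL@CNT1 and 84.0 CPM (543 counts) on PUCL in differentiation medium, against 29.0 CPM (181 counts) and 38.1 CPM (251 counts) in maintenance medium. Its fitted log2 change was 1.40 (SE 0.39, edgeR adjusted p 0.0266), and 4 of 12 alternative settings kept the call (adjusted p up to 0.682).

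Of 8 tested genes of sterol export, carriage and oxysterol synthesis, 0 passed in either direction in edgeR, DESeq2 or limma-voom, and 0 had an unadjusted p under 0.05; DESeq2 gave no adjusted p for 4 of them. Apoe, the main apolipoprotein of the brain, stood at 20.3 CPM (135 counts) on PUCL@CNT1 and 11.9 CPM (77 counts) on PUCL in differentiation medium, against 30.9 CPM (193 counts) and 33.7 CPM (222 counts) in maintenance medium (edgeR adjusted p 0.589). Abcg1, another exporter, had 1 count on PUCL in differentiation medium and 0 in the others. Of 17 tested genes of intracellular transport and storage, 0 passed in edgeR, DESeq2 (no adjusted p for 1 of them) or limma-voom, and 1 had an unadjusted p under 0.05.

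The synthesis enzymes, many of them targets of the same factors as Insig1, were 20 in number, and 13 fell and 0 rose in edgeR, with an unadjusted p under 0.05 for 17. In DESeq2 7 of the 20 fell, and with a mean of 50 or more counts required 4 of 19 did. Their median log2 ratio was -0.97 on PUCL@CNT1 and -1.43 on PUCL with zeros set at 3 counts, where all genes had 0.03 and -0.01. Hmgcs1 and Msmo1, an early and a late enzyme of the route, had edgeR adjusted p of 6.85e-10 and 5.92e-07. Among 11 tested fatty acid synthesis genes, 5 fell, 0 rose and 5 had an unadjusted p under 0.05, with falls in Acly (edgeR adjusted p 1.12e-06), Fasn (4.82e-06) and Scd1 (0.000141). With platform left out of the fit on all 4 libraries, 10 of the 20 synthesis enzymes and 5 of the 11 fatty acid genes fell. Fits with a library left out also left out platform, so the 2 cannot be told apart there. Most or all calls of both lists were lost when either maintenance library was left out, which leaves 1 library in that medium. Hmgcs1 kept its call in 11 of 12 alternative settings, with a fitted log2 change from -1.72 to -1.31. None of the lists had a member past the threshold between platforms in edgeR. The same libraries gave these values and those of the members, so they are not independent of each other.

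By distance between the 4 log2 levels of each gene, centred on their mean, 3 genes of 6203 with a mean of 100 or more counts lay nearest to Insig1. Among them were Got1, the cytosolic aspartate aminotransferase (distance 0.13), and Fbxl5, an iron-sensing ubiquitin ligase subunit (0.15). Among the members, Npc2 was nearest to Insig1 at 0.50, with rank 183, and Srebf1 farthest at 2.16, with rank 5633. Got1 had 45.9 CPM on PUCL@CNT1 and 53.8 CPM on PUCL in differentiation medium, against 87.1 CPM and 113 CPM in maintenance medium, and none of the 3 passed the medium test in edgeR (adjusted p 0.130 for Got1 and 0.640 for Fbxl5). A likeness over 4 libraries is a description only.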

How the data were processed

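Rat NSPCs of 4 groups, 1 library each, were profiled by 3' end sequencing (Lexogen QuantSeq) from 500 ng of total RNA per the labels' protocols. The authors deposited raw, unscaled counts for each symbol. Bowtie2, bedtools and the rn6 build are named per the submitters' processing notes; versions, annotation and strand setting are not given in the sources used here, so reads of antisense or overlapping genes cannot be told apart. The 17048 entries were summed to 16881 symbols; a gene was tested where some library gave it 10 or more counts.

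Libraries were scaled by TMM (trimmed mean of M values). Counts were tested in edgeR 4.0.16 (R 4.3.3) by the quasi-likelihood F test on medium plus platform, with 1 residual and 87.2 prior degrees of freedom, so p-values rest mostly on the spread of other genes. P-values were adjusted over all genes (Benjamini-Hochberg, threshold 0.05). An SE is the fitted log2 change over the root of F. Pair ratios used a prior count of 0.5 and exact 95% Clopper-Pearson intervals (scipy 1.17.1); the change of the platform difference used a normal interval. Reads carry no molecular identifiers, so intervals and the limit of 3 counts cover counting error only. With 1 library per group, p-values do not measure a spread between replicates. Alternatives were other scalings, filters, DESeq2 1.42.0, limma-voom (limma 3.58.1), the other factor left out and the ribosomal RNA entries left out. In further alternatives each library was left out, and the other factor was then left out of the fit too. The edgeR step was run on simulated counts with the same spread set for every gene. That run cannot check how well the fit handles the spread in these libraries.

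Members, lists and tests were chosen with earlier results of these data known. All members were named, with up to 3 genes per list with the smallest adjusted p past the threshold, a fixed few (Insig2, Abcg1 and Apoe among them) and the 3 genes most like a called member; some of the genes so chosen are not reported here. Of 93 list entries, 88 were in the files, 1 under another symbol (Scd as Scd1). RefSeq (GRCr8) was used for names and promoters; Stard4 has no promoter entry here.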

Additional observations from a re-analysis of the deposited data

Results flagged for a closer look

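For 3 members the ratio of PUCL@CNT1 over PUCL lay on opposite sides of 0 in the 2 media, and the difference was not tested, since each group is 1 library. The log2 platform difference in differentiation minus that in maintenance medium was -0.81 for Tmem97, 0.47 for Srebf1 and 0.41 for Npc2. For Srebf1 the ratio in maintenance medium, and for Npc2 that in differentiation medium, lay within counting error.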

How the results depend on the processing

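No paired analysis was possible because each group holds 1 library and no number pairs libraries beyond platform and medium, which are terms of the fit. Genes called for medium numbered 296, against 64 with a mean of 50 or more counts, 170 in DESeq2, 176 with platform left out, and 25 to 263 when each library was left out. Members called for medium numbered 1 (Insig1), against 0 with DESeq2 size factors, with a mean of 50 or more counts, in DESeq2, with platform left out, and 0 when each library was left out. Genes called for platform numbered 48, against 18 with DESeq2 size factors, 27 with total counts, 25 with no filter, 0 with a mean of 50 or more counts, 87 in limma-voom, 0 with medium left out, and 0 to 27 when each library was left out. Of the 192 refitted changes of members, 169 kept their direction and side of the threshold, 7 (platform differences in DESeq2) kept their direction but had no adjusted p, 8 (all Insig1) lost the call, and 8 turned direction, all of them platform differences that never passed. These turned only when a library was left out, over which the platform log2 ran from -0.66 to 0.62 for Srebf1, -0.38 to 0.097 for Scap, -0.86 to 0.43 for Insig1, -0.20 to 0.041 for Npc1, -0.55 to 0.25 for Npc2 and -0.75 to 0.16 for Tmem97; for Stard4 and Srebf2, which kept their direction, it ran from -2.49 to -0.45 and from -0.42 to -0.056. Each fit with a library left out also left out the other factor, for medium and platform alike. Such a fit holds fewer libraries and mixes the medium change with the platform difference. The part of each in these turns was not tested. Of 160 refitted pair ratios and changes of the platform difference, 159 stayed within the counting interval, and Srebf2 on PUCL@CNT1 moved to -0.42 with total counts. Depth limits Stard4, with 34 to 288 counts, most among the tested members.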
